A study of Mus musculus with 10 samples.

Results

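Linker histones are the H1 proteins that bind nucleosomes where DNA enters and leaves the particle and hold the stretch of DNA between neighbouring particles. The genes described here were all those in the deposited expression table of mouse hearts whose symbol begins with H1f and a digit: H1f2, H1f0, H1f10 and H1f4, which are 4 of the 11790 genes listed. The family was chosen by the measured difference of H1f0 and H1f2 between the genotypes in these same hearts, so its difference between genotypes is given as values, without a test.

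RNA was sequenced from heart tissue of 5 A-PDK1KO mice and 5 control mice, 10 to 11 weeks of age and in the randomly fed state. A-PDK1KO mice lack 3-phosphoinositide-dependent kinase 1 (PDK1, encoded by Pdpk1), a kinase of the insulin signalling pathway, in adipocytes. Control mice were PDK1 flox/flox, and no other allele is named in the labels for either genotype. The driver of the Cre recombinase, the sex of the mice and the method of library making are not stated in the sources used, and the series deals with the metabolism of branched-chain amino acids in a model of diabetic cardiomyopathy. Expression is in FPKM, a fragment count corrected for gene length and library depth, so that levels of genes of unequal length can be compared.

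Mammalian linker histones fall into a replication-dependent set and a replication-independent set. H1f2 and H1f4 encode H1.2 and H1.4, somatic variants of the large histone gene cluster, whose promoters carry an H1 box and a CCAAT box and are most active in S phase. The usual messages of that cluster end in a stem-loop in place of a poly(A) tail, although polyadenylated forms of some of them are known from differentiated cells. H1f0 encodes H1.0, the replacement variant that accumulates in resting and terminally differentiated cells, and H1f10 encodes H1.10, a replication-independent variant of rather divergent sequence. The other 6 protein-coding linker histone genes of the RefSeq annotation (H1f1, H1f3, H1f5, H1f6, H1f7 and H1f8) have no row in the table used here, so only their promoter sequences were examined.

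Each library held between 9249254 and 11384429 counted reads, of which 32.7 to 41.5% came from mitochondrial genes. A-PDK1KO heart 2 had 10723 genes at 1 FPKM or more, and the other 9 hearts had 9671 to 10214. The atrial myosin light chain Myl7 was above 30 FPKM in A-PDK1KO hearts 3 and 5 and in control hearts 2 and 5, and below 1 FPKM in the other 6 hearts. Pdpk1 averaged 3.46 ± 0.514 FPKM in A-PDK1KO hearts and 3.55 ± 0.256 FPKM in control hearts (SD, n = 5 each), with overlapping groups; it does not check the labels, since the deletion lies in adipocytes. Of the markers of fat cells, Fabp4, which endothelial cells also express, was the 1 of 5 in the table.

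The 4 genes lie at 3 places in the genome (mm10 coordinates of the GENCODE annotation), and each has a single exon that holds the coding sequence and both untranslated regions. H1f2 (ENSMUSG00000036181, listed by GENCODE as Hist1h1c) is at chr13:23738808-23740367 on the plus strand and overlaps no other annotated gene. H1f4 (ENSMUSG00000051627, Hist1h1e) is at chr13:23620629-23622558 on the minus strand. It shares 496 bases with the core histone gene Hist1h2be, listed in the table as H2bc6, and 320 bases with a pseudogene. H1f0 (ENSMUSG00000096210) is at chr15:79028450-79030504 on the plus strand and shares 163 bases with an antisense gene. H1f10 (ENSMUSG00000044927, H1fx) is at chr6:87980421-87981637 on the minus strand and shares 755 bases with an antisense gene and 24 bases with a miRNA. The antisense partners of H1f0 and H1f10 could be told apart from them only by strand, and whether counting used strand is not stated in the sources used. Both partners of H1f4 and the miRNA within H1f10 lie on the same strand as the linker histone gene. Reads from bases where exons of both genes overlap could not be assigned to 1 gene even with strand. All shared bases were counted over whole gene spans, and the overlap of exons alone was not examined.

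Sequence before the RefSeq start sites was set side by side for the replication-dependent and replication-independent members. The 130 bases that end just before each RefSeq start site (GRCm38.p6) are printed on the strand of the gene, 5′ to 3′, with matches to 3 motifs in capitals: AAACACA (the H1 box), CCAAT and TATAAA, searched on both strands. The windows are chr13:23738677-23738806 (plus) for H1f2, chr13:23622559-23622688 (minus) for H1f4, chr15:79028082-79028211 (plus) for H1f0 and chr6:87981483-87981612 (minus) for H1f10.
H1f2: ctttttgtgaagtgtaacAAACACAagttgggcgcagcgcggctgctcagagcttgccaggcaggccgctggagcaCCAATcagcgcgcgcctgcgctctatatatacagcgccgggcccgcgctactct
H1f4: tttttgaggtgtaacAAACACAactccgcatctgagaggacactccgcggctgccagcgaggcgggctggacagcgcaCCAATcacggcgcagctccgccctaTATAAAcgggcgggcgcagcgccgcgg
H1f0: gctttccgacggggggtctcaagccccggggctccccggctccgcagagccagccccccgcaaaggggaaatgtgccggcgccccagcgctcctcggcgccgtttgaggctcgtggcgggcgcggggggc
H1f10: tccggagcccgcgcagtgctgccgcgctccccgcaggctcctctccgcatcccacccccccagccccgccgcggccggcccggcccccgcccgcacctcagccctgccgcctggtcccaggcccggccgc

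In H1f2 the H1 box begins 112 bases and the CCAAT motif 54 bases before the start. H1f4 has the same pair at 115 and 52 bases, and TATAAA at 27 bases. The H1f2 window lacks that exact string but holds the letters tatatata at a similar distance, which the search did not count. The windows of H1f0 and H1f10 hold none of the 3 motifs, and no match overlapped another. For both of these genes RefSeq and GENCODE place the start differently. The H1f10 window lies within the exon given by GENCODE. The H1f0 window ends upstream of the GENCODE start, and the bases between were not searched. Whether the motifs or the content of G and C depend on the start site used was not tested. G and C make up 60.8% of the printed bases of H1f2 and 63.9% of those of H1f4, against 76.9% for H1f0 and 83.9% for H1f10. Over the 250 bases upstream of all 32851 RefSeq start sites, AAACACA occurred in 6.25% of windows, CCAAT in 33.8% and TATAAA in 12.4%. Among the 10 linker histone genes of RefSeq, 5 windows held AAACACA, 7 held CCAAT and 4 held TATAAA. A match describes the letters and does not show that a factor binds there.

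H1f2 was the most abundant linker histone transcript and stood at rank 234 of the 11790 genes by mean FPKM. It had 217, 223, 224, 199.8 and 172 FPKM in A-PDK1KO hearts 1 to 5, against 133, 158, 121, 138 and 124 FPKM in control hearts 1 to 5. The lowest A-PDK1KO heart was above the highest control heart, and A-PDK1KO heart 5 was the lowest of its group. The means were 207 ± 21.7 FPKM in A-PDK1KO hearts and 135 ± 14.9 FPKM in control hearts (SD, n = 5 each), a ratio of 1.54. On the log2(FPKM + 1) scale the difference was 0.62 ± 0.09 (SE from the fit across all genes). The values rest on 2785 to 3857 reads per A-PDK1KO heart and 1770 to 2504 reads per control heart. In both groups the hearts varied alike, with coefficients of variation of 10.5% in A-PDK1KO hearts and 11.0% in control hearts.

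H1f0, the variant of resting cells, was next in abundance at rank 647. A-PDK1KO hearts 1 to 5 had 65.1, 71.4, 58.6, 58.6 and 59.6 FPKM, and control hearts 1 to 5 had 41.7, 47.5, 38.2, 44.9 and 40.5 FPKM. Again every A-PDK1KO heart was above every control heart, and A-PDK1KO heart 2 was the highest. H1f0 averaged 62.7 ± 5.56 FPKM in A-PDK1KO hearts and 42.6 ± 3.67 FPKM in control hearts (SD, n = 5 each). The ratio of means was 1.47 and the log2 difference 0.55 ± 0.08 (SE). Reads numbered 1268 to 1429 per A-PDK1KO heart and 739 to 990 per control heart. Among the controls, heart 2 was the highest and heart 3 the lowest for H1f0, as they were for H1f2.

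H1f10 was a low-abundance transcript, at rank 8274. Its levels were 1.89, 2.87, 2.45, 1.52 and 1.75 FPKM in A-PDK1KO hearts 1 to 5, against 1.24, 1.13, 1.48, 1.19 and 1.15 FPKM in control hearts 1 to 5. The groups were separate by 0.0313 FPKM, the gap between A-PDK1KO heart 4 and control heart 3. H1f10 averaged 2.09 ± 0.554 FPKM in A-PDK1KO hearts and 1.24 ± 0.143 FPKM in control hearts (SD, n = 5 each), a ratio of 1.69 and a log2 difference of 0.45 ± 0.12 (SE). These levels come from 21 to 34 reads per A-PDK1KO heart and 14 to 17 reads per control heart. At 14 reads, the count of 3 of the control hearts, the exact Poisson 95% interval runs from 7.65 to 23.5 reads and covers counting error only. The gap between the groups was therefore smaller than the counting error of a single heart.

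H1f4, the other member of the histone cluster in the table, was the least abundant of the 4, at rank 9234. It had 1.19, 2.50, 2.34, 1.55 and 0.900 FPKM in A-PDK1KO hearts 1 to 5 and 0.896, 0.715, 0.440, 1.13 and 0.967 FPKM in control hearts 1 to 5. The groups overlapped, since A-PDK1KO heart 5 was below control hearts 4 and 5. The means were 1.70 ± 0.703 FPKM in A-PDK1KO hearts and 0.829 ± 0.262 FPKM in control hearts (SD, n = 5 each), a ratio of 2.05 and a log2 difference of 0.53 ± 0.17 (SE). A-PDK1KO hearts gave 18 to 50 reads and control hearts 8 to 21 reads. The exact Poisson 95% interval is 37.1 to 65.9 reads at the highest count and 3.45 to 15.8 reads at the lowest. H2bc6, which shares bases with H1f4, averaged 0.844 ± 0.179 FPKM in A-PDK1KO hearts and 0.667 ± 0.233 FPKM in control hearts (SD, n = 5 each), with overlapping groups.

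**Figure D1:**
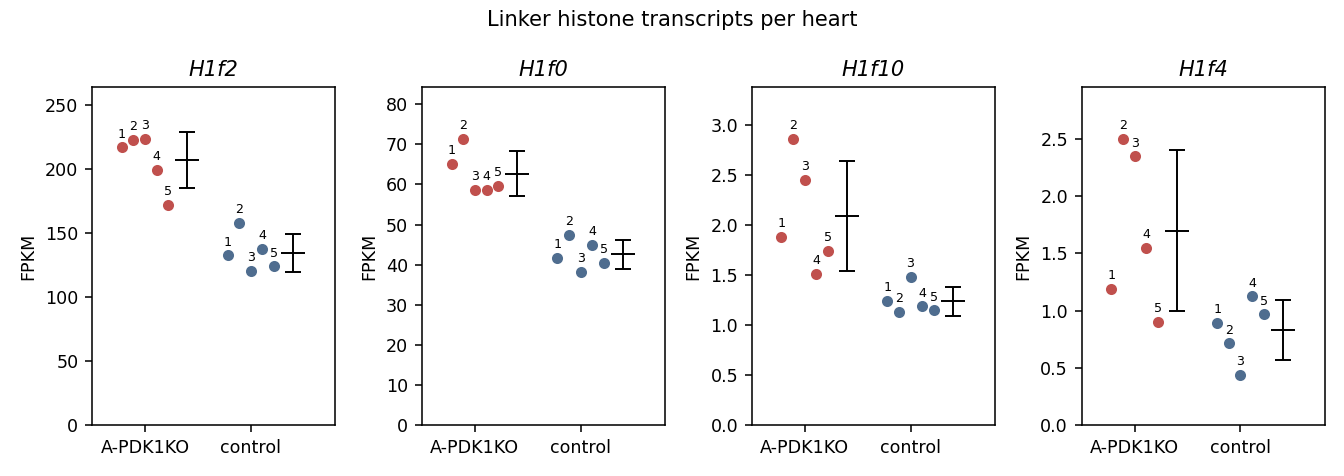
FPKM of the 4 linker histone genes in each heart, numbered by replicate, with the group mean and SD beside the points (n = 5 each); each panel has its own axis from 0. H1f2, H1f0 and H1f10 have no A-PDK1KO heart at or below a control heart, and for H1f4 A-PDK1KO heart 5 at 0.900 FPKM lies within the control range.

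For 3 of the 4 linker histone genes (H1f2, H1f0 and H1f10), all A-PDK1KO hearts were above all control hearts. Over the 9987 genes whose mean reached 1 FPKM, a group that includes all 4, the same held for 2.72% of genes. H1f4 reached that mean only through the A-PDK1KO hearts, at 1.70 FPKM against 0.829 FPKM in control hearts. The members' share is a product of how they were chosen and is not read against that background. The median log2 difference of the 4 genes was 0.54, beside 0.02 over all tested genes, of which 54.6% lay above 0. Differences at or above that of H1f2 were found for 66 genes and at or above that of H1f0 for 93 genes, each count with the gene itself. These counts and the median of the 4 genes rest on the difference by which H1f2 and H1f0 were chosen. Nothing is read from them. Without A-PDK1KO heart 2, the heart with the most genes detected, the log2 differences were 0.59 for H1f2, 0.50 for H1f0, 0.36 for H1f10 and 0.43 for H1f4. With the level of Myl7 alone as an atrial covariate they were 0.62, 0.55, 0.45 and 0.53 in the same order. In RNA from heart tissue, more cells of a type and more RNA per cell cannot be told apart, nor can fewer cells and less RNA per cell.

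Summed over the 4 genes, linker histone transcripts reached 285, 299.6, 287, 262 and 235 FPKM in A-PDK1KO hearts 1 to 5, against 177, 208, 161, 185 and 167 FPKM in control hearts 1 to 5. The sums averaged 274 ± 25.8 FPKM in A-PDK1KO hearts and 179 ± 18.4 FPKM in control hearts (SD, n = 5 each), a ratio of 1.53, and the groups did not overlap. Without the correction for length, in reads scaled to library size (RPM), the 4 genes took 458 ± 42.1 RPM in A-PDK1KO hearts and 301 ± 30.5 RPM in control hearts (SD, n = 5 each).

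The shares of the genes in that sum overlapped between the 2 genotypes. H1f2 gave 75.7 ± 1.75% of it in A-PDK1KO hearts and 75.1 ± 0.725% in control hearts, and H1f0 gave 23.0 ± 1.84% in A-PDK1KO hearts and 23.8 ± 0.578% in control hearts (SD, n = 5 each). H1f10 and H1f4 were each under 1% of the sum in every heart. The ratio of H1f2 to H1f0 was 3.32 ± 0.346 in A-PDK1KO hearts and 3.16 ± 0.109 in control hearts (SD, n = 5 each). It ran from 2.89 to 3.82 in A-PDK1KO hearts and from 3.06 to 3.33 in control hearts, so the groups overlapped, with A-PDK1KO hearts 3 and 5 at the ends of the range.

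Core histones form the nucleosome particle that linker histones bind, and 9 replication-type core histone genes were in the table. Their summed level was 55.1 ± 4.76 FPKM in A-PDK1KO hearts and 54.9 ± 6.83 FPKM in control hearts (SD, n = 5 each), with ranges of 50.4 to 62.2 FPKM in A-PDK1KO hearts and 47.2 to 63.1 FPKM in control hearts. The ratio of the linker sum to the core sum was 4.98 ± 0.480 in A-PDK1KO hearts and 3.31 ± 0.571 in control hearts (SD, n = 5 each). Its lowest A-PDK1KO value, 4.37 in heart 5, was above its highest control value, 4.27 in heart 2. The ratio takes its direction from the chosen members and is a description of RNA levels, with no bearing on protein. Most of the core sum came from H2bc4 and H4c8. Since the method of library making is not stated, how fully messages without a poly(A) tail were captured is not known.

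**Figure D2:**
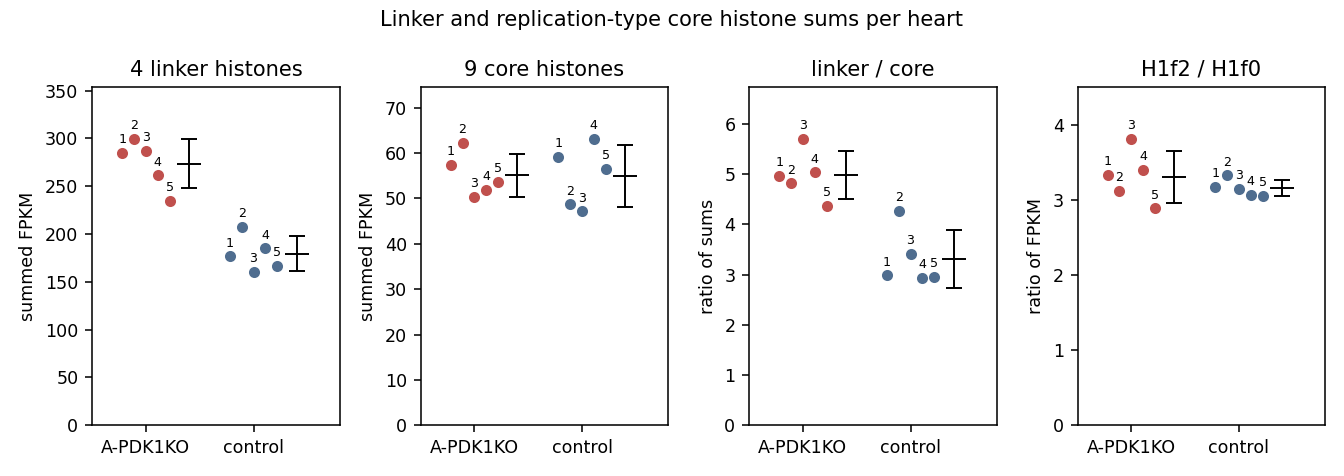
Per heart, from left to right: summed FPKM of the 4 linker histone genes, summed FPKM of the 9 replication-type core histone genes, the ratio of these sums, and the ratio of H1f2 to H1f0, with group mean and SD (n = 5 each). The linker sum is 235 FPKM or more in every A-PDK1KO heart and 208 FPKM or less in every control heart, whereas the core sums and the H1f2 to H1f0 ratios of the groups overlap.

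Levels per length were compared within hearts, a contrast that does not involve genotype. The pairs were neighbours in the order of mean FPKM over these same hearts, so each direction was taken from the values tested. The tests take the length of each gene as given. H1f2 was above H1f0 in 10 of 10 hearts, by 1.67 ± 0.111 on the log2(FPKM + 1) scale (SD, n = 10; exact two-sided paired sign-flip permutation, p = 0.00195, the smallest it can give; adjusted over the 3 neighbouring pairs, 0.00293). H1f0 was above H1f10 in 10 of 10 hearts, by 4.33 ± 0.193 (SD, n = 10; same exact test, adjusted p = 0.00293). H1f10 was above H1f4 in 9 of 10 hearts, all but A-PDK1KO heart 4, by 0.26 ± 0.252 (SD, n = 10; same exact test, adjusted p = 0.00391).

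The last of these orders rests on the gene models. The deposited values use exon lengths of 1560 bases for H1f2, 2055 for H1f0, 1217 for H1f10 and 1930 for H1f4, while RefSeq gives 725, 2293, 1062 and 782 bases for the same genes. With RefSeq lengths, an alternative added after the data were seen, H1f4 averaged 4.19 FPKM in A-PDK1KO hearts and 2.05 FPKM in control hearts. H1f10 then averaged 2.40 FPKM in A-PDK1KO hearts and 1.42 FPKM in control hearts, so that the difference of H1f10 minus H1f4 turned to -0.43 (exact test as above, adjusted p = 0.0117). The order of H1f2, H1f0 and the pair of low genes was as before, with H1f2 at 446 FPKM in A-PDK1KO hearts and 289.9 FPKM in control hearts. How far the transcripts of H1f2 and H1f4 extend in these hearts was not tested.

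Genes around the linker histones were examined in 9 lists and in the replication-type core histones, with limma on log2(FPKM + 1) values across all tested genes. Of the genes in the 9 lists, 93 were tested and 3 passed an adjusted p of 0.05, against 2.08% of all 9987 genes (1.21% higher and 0.871% lower in A-PDK1KO hearts; 15.6% had an unadjusted p under 0.05). Voom on recovered reads called 2.33% of the genes it tested. Each limma p-value sets the difference between genotypes against the spread of single hearts within groups, from 10 mice. That spread is moderated by a trend over all tested genes. Of the 5 replication-type core histone genes tested, none passed, none had an unadjusted p under 0.05 and 0 were called by voom on recovered reads, and their median log2 difference was -0.01. The most abundant, H2bc4, which encodes an H2B, averaged 26.5 ± 3.04 FPKM in A-PDK1KO hearts and 27.1 ± 2.65 FPKM in control hearts (SD, n = 5 each; limma, adjusted p = 0.918). H4c8, which encodes an H4, averaged 18.6 ± 1.38 FPKM in A-PDK1KO hearts and 19.0 ± 4.00 FPKM in control hearts (SD, n = 5 each; limma, adjusted p = 0.983).

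Replacement variants are the core histones that are deposited outside S phase, as H1f0 is among linker histones. None of the 9 tested passed in limma and 0 in voom, 1 had an unadjusted p under 0.05, and the median log2 difference was -0.03. H3f3a, 1 of the genes of histone H3.3, averaged 37.9 ± 1.65 FPKM in A-PDK1KO hearts and 36.3 ± 3.75 FPKM in control hearts (SD, n = 5 each). H3f3b, the other H3.3 gene, averaged 32.5 ± 6.21 FPKM in A-PDK1KO hearts and 25.5 ± 2.95 FPKM in control hearts, a log2 difference of 0.33 (SD, n = 5 each; limma, adjusted p = 0.198). Among 9 tested genes of histone mRNA 3′ processing, which cuts the stem-loop messages, 0 passed in limma or voom and 0 had an unadjusted p under 0.05, with a median of 0.05. Its most abundant members were Snrpb, an Sm core protein, and Lsm10, of the U7 particle. Snrpb averaged 21.6 FPKM in A-PDK1KO hearts and 23.5 FPKM in control hearts, and Lsm10 10.3 FPKM in A-PDK1KO hearts and 9.17 FPKM in control hearts.

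Prothymosin and nucleophosmin are acidic proteins that bind linker histones. Their genes belong to a list of 10 chaperones and acidic binding partners, of which 0 passed in limma or voom and 1 had an unadjusted p under 0.05 (median log2 difference -0.01). Ptma averaged 91.2 ± 4.73 FPKM in A-PDK1KO hearts and 91.9 ± 4.96 FPKM in control hearts, and Npm1 averaged 41.0 ± 2.70 FPKM in A-PDK1KO hearts and 43.1 ± 2.24 FPKM in control hearts (SD, n = 5 each). Both pairs of groups overlapped.

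High mobility group proteins compete with H1 for nucleosomes, and 1 of 7 tested genes passed: Hmgb2, a DNA-bending protein that is abundant in dividing cells. Its levels were 2.60, 3.45, 1.6, 1.49 and 1.77 FPKM in A-PDK1KO hearts 1 to 5, against 0.792, 1.22, 0.708, 0.792 and 1.21 FPKM in control hearts 1 to 5. All A-PDK1KO hearts were above all control hearts, and A-PDK1KO heart 2 was the highest, as for H1f0, H1f10 and H1f4. Hmgb2 averaged 2.18 ± 0.833 FPKM in A-PDK1KO hearts and 0.944 ± 0.249 FPKM in control hearts (SD, n = 5 each), a ratio of 2.31. Hmgb2 reached the mean of 1 FPKM needed for testing only through the A-PDK1KO hearts. It rose in A-PDK1KO hearts by 0.68 ± 0.16 on the log2 scale (SE; limma, adjusted p = 0.0478; voom, adjusted p = 0.0406). The call held with A-PDK1KO heart 4 left out (adjusted p = 0.0451) and was lost with any other heart left out, at up to 0.117 without control heart 3. The list as a whole had a median log2 difference of 0.02.

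Genes for proteins that bind linker DNA or compact chromatin, such as methyltransferases and heterochromatin proteins, gave 0 calls among 16 in limma, 1 in voom and 2 with an unadjusted p under 0.05. Their median log2 difference was 0.10, and 15 of the 16 were above 0, beside 54.6% of all tested genes. The gene called by voom was Ezh1, a histone H3 methyltransferase of Polycomb complexes in resting cells. Ezh1 averaged 9.97 ± 0.454 FPKM in A-PDK1KO hearts and 7.98 ± 0.738 FPKM in control hearts, with no overlap and a log2 difference of 0.29 (SD, n = 5 each; limma, adjusted p = 0.0608; voom, 0.0433). Kmt5a, which methylates histone H4, averaged 15.1 FPKM in A-PDK1KO hearts and 16.0 FPKM in control hearts.

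Chromatin remodelling ATPases had 0 calls among 8 in limma or voom and 2 genes with an unadjusted p under 0.05 (median log2 difference 0.12). Chd4, the ATPase of the NuRD complex, averaged 16.6 FPKM in A-PDK1KO hearts and 14.9 FPKM in control hearts, and Smarca4, an ATPase of the BAF complexes, averaged 7.33 FPKM in A-PDK1KO hearts and 7.18 FPKM in control hearts. Histone deacetylases and acetyltransferases had 0 calls among 16 in limma, 0 among the 15 tested in voom and 0 with an unadjusted p under 0.05. Their median was 0.11, with 15 of 16 above 0, beside 54.6% of all tested genes. The median over all tested genes was 0.016, against -0.008 with median-of-ratios factors and 0.070 without mitochondrial and haemoglobin genes. The medians of the lists were not computed under those scalings. Kat2b, an acetyltransferase, averaged 14.7 FPKM in A-PDK1KO hearts and 14.0 FPKM in control hearts, and Sirt2, a deacetylase, averaged 12.5 FPKM in A-PDK1KO hearts and 13.0 FPKM in control hearts.

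The replication-dependent linker histones are made with DNA replication, and of 24 listed genes of replication and proliferation 7 were in the table and 4 were tested. None was called in limma and 0 in voom, and 2 had an unadjusted p under 0.05. Pcna, the sliding clamp of DNA polymerase, averaged 9.34 ± 1.26 FPKM in A-PDK1KO hearts and 9.42 ± 1.03 FPKM in control hearts (SD, n = 5 each). Mcm4, a subunit of the replicative helicase, averaged 2.09 ± 0.0731 FPKM in A-PDK1KO hearts and 1.45 ± 0.671 FPKM in control hearts (SD, n = 5 each; limma, adjusted p = 0.236), and control heart 2 was the highest of all at 2.56 FPKM. Without control heart 2, Mcm4 passed in limma, with a log2 difference of 0.52 (adjusted p = 0.0345), and it did not with any other single heart left out.

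A list of 14 tested genes held those of cell cycle inhibition and quiescence together with cyclins of the G1 phase. In limma 1 rose, 1 fell and 7 had an unadjusted p under 0.05 (4 higher and 3 lower in A-PDK1KO hearts), and voom called 3. The 3 lower ones were the genes of cyclins D1, D2 and D3. Ccng2, a cyclin induced in arrested cells, had 6.36, 7.29, 6.70, 4.73 and 6.37 FPKM in A-PDK1KO hearts 1 to 5, against 3.57, 4.81, 3.76, 3.32 and 4.55 FPKM in control hearts 1 to 5. The groups overlapped by A-PDK1KO heart 4 and control heart 2, and the log2 difference was 0.54 ± 0.11 (SE; limma, adjusted p = 0.0325). That call held without A-PDK1KO heart 4, control heart 2 or control heart 5, and was lost with any of the other 7 hearts left out, at up to 0.0839 without A-PDK1KO heart 5.

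Ccnd1, which encodes cyclin D1 of the G1 phase, fell in A-PDK1KO hearts. It had 7.04, 7.87, 7.67, 8.15 and 7.83 FPKM in A-PDK1KO hearts 1 to 5, against 10.2, 9.20, 12.1, 11.3 and 10.1 FPKM in control hearts 1 to 5. No A-PDK1KO heart reached the lowest control heart, a separation found in this direction for 2.23% of tested genes. The log2 difference was -0.41 ± 0.08 (SE; limma, adjusted p = 0.0240). The adjusted p went above 0.05 without A-PDK1KO heart 1 (0.0566), heart 3 (0.0631) or heart 5 (0.0647), or without control heart 3 (0.0633).

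**Figure D3:**
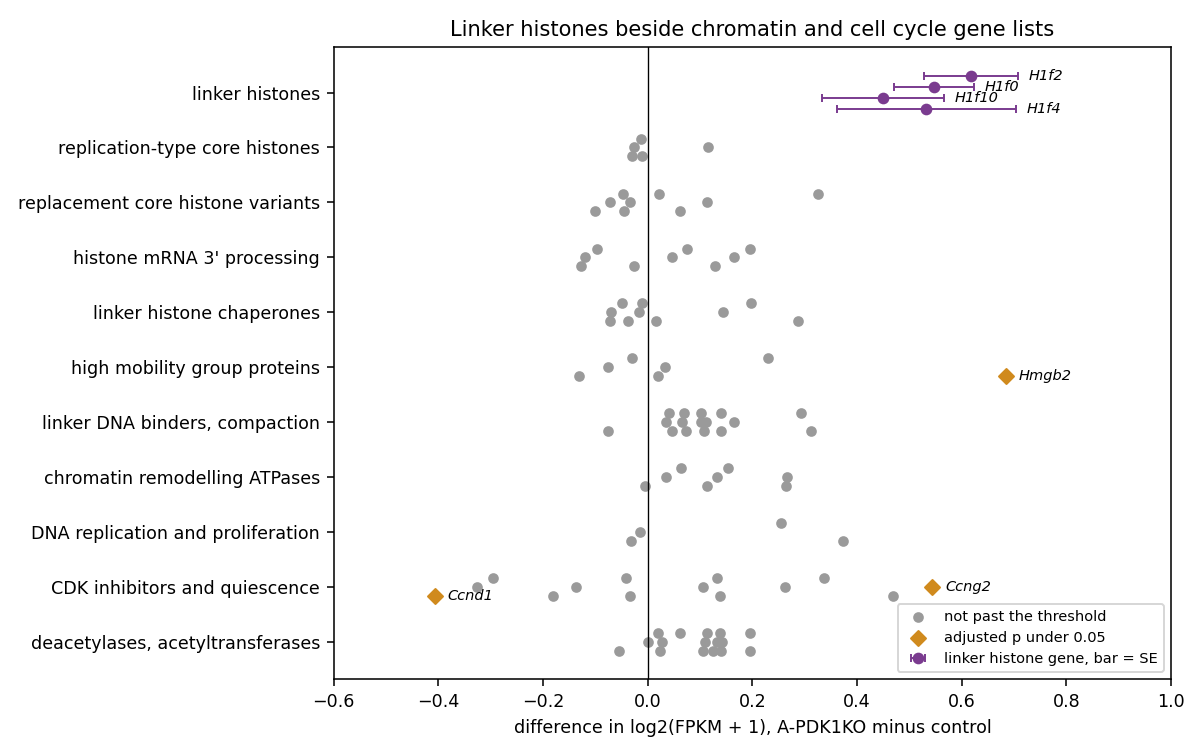
Difference in log2(FPKM + 1), A-PDK1KO minus control, for the 4 linker histone genes (with SE) and for each tested gene of 10 other groups of chromatin and cell cycle genes. The linker histone genes lie between 0.45 and 0.62, and the diamonds mark Hmgb2 at 0.68, Ccng2 at 0.54 and Ccnd1 at -0.41, the genes of the 9 lists past an adjusted p of 0.05 in limma; the linker histone genes are shown without a test.

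Markers of the cell types of the heart were summed beside these values, and in no list did a gene pass in limma. Cardiomyocyte markers (6 of 6 in the table) summed to 10707 to 12490 FPKM in A-PDK1KO hearts, with a median of 11966, and to 11432 to 13962 FPKM in control hearts, with a median of 13517. All 6 had log2 differences below 0, and 3 of them had an unadjusted p under 0.05. Atrial markers (4 of 5) summed to 184 to 268 FPKM in A-PDK1KO hearts, with a median of 230.4, and to 214 to 579 FPKM in control hearts, with a median of 435. All 4 had log2 differences below 0, 1 of them with an unadjusted p under 0.05. Among the others, 1 fibroblast marker was higher and 1 smooth muscle marker was lower in A-PDK1KO hearts at an unadjusted p under 0.05. Endothelial markers (7 of 7) summed to 102 to 118 FPKM in A-PDK1KO hearts and 94.2 to 114 FPKM in control hearts. All 7 had log2 differences above 0, beside 54.6% of all tested genes, and 0 had an unadjusted p under 0.05. Fibroblast markers (6 of 6) summed to 109 to 135 FPKM in A-PDK1KO hearts and 114 to 138 FPKM in control hearts. Smooth muscle and pericyte markers (6 of 6) summed to 124 to 161 FPKM in A-PDK1KO hearts and 122 to 194 FPKM in control hearts. Macrophage markers (7 of 7) summed to 115 to 158 FPKM in A-PDK1KO hearts and 129 to 164 FPKM in control hearts. Neutrophil markers (2 of 4) summed to 0.631 to 2.76 FPKM in A-PDK1KO hearts and 0.645 to 1.30 FPKM in control hearts, and erythroid markers (5 of 5) to 68.6 to 228 FPKM in A-PDK1KO hearts and 27.9 to 1391 FPKM in control hearts. All 5 erythroid markers had log2 differences below 0. Those of fibroblasts, of smooth muscle and pericytes and of macrophages lay on both sides of 0. Fabp4 ran from 78.2 to 139 FPKM in A-PDK1KO hearts and from 76.2 to 123 FPKM in control hearts. Every sum overlapped between genotypes, and the part of cell make-up in the linker histone levels was not tested.

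The patterns of H1f2 and H1f0 over the 10 hearts were close to each other. After each gene was centred on its own mean, their log2(FPKM + 1) values differed by 0.083 on average per heart. The median distance from 9983 other genes was 0.28 for H1f0 and 0.32 for H1f2. No other gene lay nearer to H1f2 than H1f0 did, and 4 lay nearer to H1f0 than H1f2 did. H1f10 was at 0.16 from both, and H1f4 at 0.22 from H1f2 and 0.23 from H1f0. The distance includes the genotype difference by which H1f2 and H1f0 were proposed.

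Nearest to H1f0 were Gcc2, a golgin of the trans-Golgi (distance 0.069), Trafd1, a zinc finger protein of innate immune signalling (0.070), Tfdp2, a partner of E2F factors (0.074), Med7, a Mediator subunit (0.083), and Tacc2, a coiled-coil protein of the centrosome (0.085). Tacc2 averaged 59.1 ± 4.34 FPKM in A-PDK1KO hearts and 40.9 ± 3.71 FPKM in control hearts, close to the levels of H1f0 itself, and Tfdp2 averaged 8.76 ± 0.638 FPKM in A-PDK1KO hearts and 6.06 ± 0.221 FPKM in control hearts (SD, n = 5 each).

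Nearest to H1f2 were Art5, an ADP-ribosyltransferase (0.10), Gcc2 (0.11), Fbxo31, an F-box protein of a ubiquitin ligase (0.11), Sh3rf2, a RING finger protein (0.12), and Cir1, a corepressor (0.12). Fbxo31 averaged 50.4 ± 2.48 FPKM in A-PDK1KO hearts and 32.3 ± 3.42 FPKM in control hearts, and Art5 averaged 12.3 ± 1.49 FPKM in A-PDK1KO hearts and 7.51 ± 1.26 FPKM in control hearts (SD, n = 5 each). In each of these 9 genes all A-PDK1KO hearts were above all control hearts, as in 2.72% of all tested genes. The 9 were picked for nearness to genes whose groups are separate, so nothing is read from that count. Such nearness is a description of 10 values per gene.

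**Figure D4:**
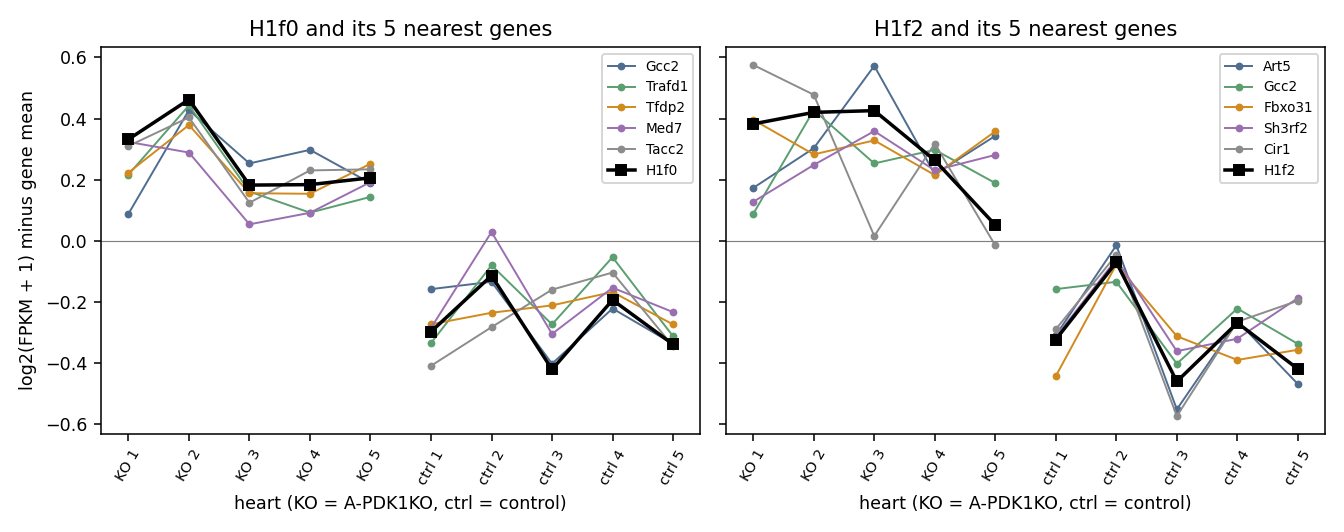
Centred log2(FPKM + 1) values of H1f0 (left) and H1f2 (right) in each heart, in black, with the 5 genes of smallest mean distance to each in colour; lines join hearts of a group only to guide the eye. H1f0 and H1f2 are above 0 in all A-PDK1KO hearts and below 0 in all control hearts, and both are lowest in control heart 3.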

How the data were processed

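The samples are hearts of 5 A-PDK1KO and 5 control mice, grouped by genotype label. The linker histone genes and all lists were chosen with earlier results of these data known. The submitters' processing notes name Trimmomatic 0.38, HISAT2 2.1.0, featureCounts 1.6.3 and the mm10 build, and the labels' protocols name FastQC 0.11.7. The authors deposited FPKM values, 1 column per heart, for 11790 genes that each reach 1.00 FPKM in at least 1 heart. A column of cluster numbers was not used.

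Reads were recovered from the FPKM with GENCODE M21 union exon lengths and were whole, within 0.05 of a read, in all hearts for 98.1% of genes and for 98.4% of values. The 9987 genes averaging 1 FPKM or more were tested as log2(FPKM + 1), which understates differences of low genes, with limma 3.58.1 in R 4.3.3 (empirical Bayes with trend, two-sided, Benjamini-Hochberg, threshold 0.05), A-PDK1KO minus control, without covariates. The same steps were tested on simulated data. Voom on recovered reads was an alternative and called 228 of 9789 genes. Exact permutation tests used all 1024 sign flips (Python 3.11.15, scipy 1.17.1).

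The text names all H1f genes of the table, up to 4 called genes per list by smallest p or else up to 2 of highest mean FPKM, and the 5 genes nearest to H1f0 and to H1f2. H2bc6, Pdpk1, Myl7, Fabp4 and the genes of the closing observations are named outside that rule, chosen after their values were seen. Promoter sequences are RefSeq's. Alternatives were another pseudocount, no filter or 5 FPKM, 3 other scalings, robust variances, an atrial covariate (Myl7), a replicate block, voom, RefSeq lengths and leaving out each heart.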

Additional observations from a re-analysis of the deposited data

How the results depend on the processing

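H1f2 and H1f0 kept the direction of their difference under every alternative run, with log2 differences of 0.58 to 0.68 for H1f2 and 0.50 to 0.61 for H1f0. Both were chosen by this difference, and their groups were separate. Leaving out a heart or changing the pseudocount, filter or variances could therefore not turn its direction. H1f10 kept its direction at 0.36 to 0.70 and H1f4 at 0.43 to 0.97, the low genes having no value with a minimum of 5 FPKM. H1f10 moved to 0.68 with a pseudocount of 0.1 and to 0.70 in voom, and H1f4 to 0.91 and 0.97, where a smaller constant is added to the same low values. The order of H1f10 and H1f4 reversed to -0.43 with RefSeq lengths, by the construction of that alternative.

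Genes called across the table numbered 208, against 63 on the TPM scale, 390 without mitochondrial and haemoglobin genes and 57 to 150 with 1 heart left out, fewest without A-PDK1KO heart 5. The share of calls that were higher in A-PDK1KO hearts was 58.2%, against 82.8% without mitochondrial and haemoglobin genes, 40.9% without A-PDK1KO heart 2 and 49.3% with median-of-ratios factors (102 higher, 105 lower). Chromatin and cell cycle genes called numbered 3, against 5 with a minimum of 5 FPKM, 1 on the TPM scale, 7 without mitochondrial and haemoglobin genes, 5 in voom and 0 to 3 with 1 heart left out. The cause of these shifts was not tested. Hmgb2 lost its call with no filter (adjusted p = 0.055), on the TPM scale (0.0738) and with the atrial covariate (0.0618), Ccnd1 on the TPM scale (0.0827) and Ccng2 with median-of-ratios factors (0.0528), all in limma. Ezh1 gained one with a minimum of 5 FPKM (0.0385), without mitochondrial and haemoglobin genes (0.0168) and with the atrial covariate (0.0384).

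In their deviations from the group means, same-numbered hearts correlated at -0.12 to 0.09, and none matched its own number best. These values gave no sign that the replicate numbers pair the hearts, but they cannot exclude a pairing. The fit with a replicate block called 153 genes and the same number, 3, of chromatin and cell cycle genes. At 8 to 50 reads per heart, depth limits H1f10 and H1f4.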

Other observations

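Genes chosen after their values were seen gave further values for the cell cycle list around the linker histones. Ccnd2, which encodes cyclin D2, averaged 5.46 ± 0.412 FPKM in A-PDK1KO hearts and 7.12 ± 0.871 FPKM in control hearts, a log2 difference of -0.33 (SD, n = 5 each; limma, adjusted p = 0.0721). Ccnd3, which encodes cyclin D3, averaged 3.70 ± 0.38 FPKM in A-PDK1KO hearts and 4.77 ± 0.627 FPKM in control hearts, a log2 difference of -0.30 (SD, n = 5 each; limma, adjusted p = 0.128). As for Ccnd1, each A-PDK1KO heart was below each control heart for both genes. Neither passed the threshold. Of the 5 tested genes of CDK inhibitors, 3 had log2 differences above 0 and 2 below, 2 had an unadjusted p under 0.05 and 0 passed in limma. Cdkn1b, which encodes the inhibitor p27, averaged 8.89 ± 1.76 FPKM in A-PDK1KO hearts and 6.10 ± 0.835 FPKM in control hearts, with overlapping groups and a log2 difference of 0.47 (SD, n = 5 each; limma, adjusted p = 0.0714). Cdkn2c, which encodes p18, averaged 3.91 ± 0.572 FPKM in A-PDK1KO hearts and 2.89 ± 0.451 FPKM in control hearts, without overlap and with a log2 difference of 0.34 (SD, n = 5 each; limma, adjusted p = 0.135). The log2 differences were 0.13 for Cdkn2d, -0.04 for Cdkn1a and -0.18 for Cdkn1c, with overlapping groups. Ccng1, the paralogue of Ccng2, averaged 205 ± 22.2 FPKM in A-PDK1KO hearts and 209.8 ± 15.4 FPKM in control hearts (SD, n = 5 each; limma, adjusted p = 0.890).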
